A study of Mus musculus with 14 samples.

Results

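The regions described here are the 335 ChIP-seq peaks of Sin3A and Sin3B on mouse chromosome 6, out of 7606 peaks on all chromosomes. They were chosen by chromosome name alone in 4 deposited peak lists, and each was then named by the nearest gene start. The cells were C2C12, an established mouse line of muscle precursors from a C3H background. Myoblasts were growing cells in medium with 10% fetal bovine serum, and myotubes were confluent cells moved to 2% horse serum and separated from undifferentiated cells with dilute trypsin. The labels name no transgene, deletion or drug. Chromatin was precipitated for Sin3A from myoblasts (2 samples) and myotubes (2 samples) and for Sin3B from myoblasts (2 samples) and myotubes (5 samples). The remaining 3 samples were inputs and were not analysed here. The files of each group were identical to each other, so each group gave 1 list, no spread between cultures could be measured, and no difference between stages or proteins was tested. The labels give a single antibody catalogue number for Sin3A and Sin3B, with different lots, so how far the lists depend on the antibody cannot be told apart from the protein named. The Sin3A myoblast samples used 2 lots, 1 of them also used for Sin3A in myotubes, and a single lot served both stages of Sin3B. A list holds intervals without height, score or read depth, so a peak missing from a list says only that it was not called there.

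Sin3A and Sin3B are large scaffold proteins that do not bind DNA themselves. They are brought to genes by transcription factors and hold histone deacetylases, and the complex is known mainly as a corepressor, although it also sits at many active promoters. When myoblasts fuse into myotubes they leave the cell cycle for good and switch on the sarcomere genes, and Sin3 complexes have been linked to both changes.

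Promoters of genes at some of the peaks are shown first. The first 5 belong to genes in 5 of the regions that Sin3A in myotubes and Sin3B at both stages had in common. Rad51ap1 stands for Sin3B at both stages, Hnrnpf for Sin3B in myotubes alone and Eif2ak3 for Sin3A in myoblasts alone, each the gene with the widest such peak among those with a sequence at hand. Each line is the strand of the gene from 250 bases before its start to 50 bases after it, from RefSeq. Capitals mark matches, on either strand, to the motifs described near the end of these results.
Emc3 (GRCm38.p6 chr6:113531589-113531888, minus strand): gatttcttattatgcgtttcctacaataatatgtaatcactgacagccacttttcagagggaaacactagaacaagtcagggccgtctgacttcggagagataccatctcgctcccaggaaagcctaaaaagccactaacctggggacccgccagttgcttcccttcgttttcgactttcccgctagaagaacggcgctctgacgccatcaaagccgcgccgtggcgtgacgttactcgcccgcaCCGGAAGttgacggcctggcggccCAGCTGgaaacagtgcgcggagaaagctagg
Ncapd2 (GRCm38.p6 chr6:125191537-125191836, minus strand): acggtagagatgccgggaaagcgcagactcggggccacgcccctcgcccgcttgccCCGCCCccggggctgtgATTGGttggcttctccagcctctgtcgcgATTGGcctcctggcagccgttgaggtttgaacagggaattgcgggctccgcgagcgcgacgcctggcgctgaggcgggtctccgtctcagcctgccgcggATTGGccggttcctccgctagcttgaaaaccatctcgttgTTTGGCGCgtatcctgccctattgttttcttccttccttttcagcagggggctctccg
Arpc4 (GRCm38.p6 chr6:113377863-113378162, plus strand): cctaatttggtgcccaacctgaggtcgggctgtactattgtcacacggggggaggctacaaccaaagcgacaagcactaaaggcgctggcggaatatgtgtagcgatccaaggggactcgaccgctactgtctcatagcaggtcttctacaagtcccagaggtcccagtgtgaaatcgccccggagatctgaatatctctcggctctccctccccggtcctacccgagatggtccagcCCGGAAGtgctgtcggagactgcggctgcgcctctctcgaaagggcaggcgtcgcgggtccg
Lsm5 (GRCm38.p6 chr6:56704650-56704949, minus strand): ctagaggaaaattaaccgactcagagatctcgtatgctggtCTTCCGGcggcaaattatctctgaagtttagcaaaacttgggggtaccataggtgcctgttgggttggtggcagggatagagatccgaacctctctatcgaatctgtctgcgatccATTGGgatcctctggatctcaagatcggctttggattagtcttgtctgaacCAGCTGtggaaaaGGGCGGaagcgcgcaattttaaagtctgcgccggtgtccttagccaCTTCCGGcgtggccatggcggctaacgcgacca
Chchd4 (GRCm38.p6 chr6:91473374-91473673, minus strand): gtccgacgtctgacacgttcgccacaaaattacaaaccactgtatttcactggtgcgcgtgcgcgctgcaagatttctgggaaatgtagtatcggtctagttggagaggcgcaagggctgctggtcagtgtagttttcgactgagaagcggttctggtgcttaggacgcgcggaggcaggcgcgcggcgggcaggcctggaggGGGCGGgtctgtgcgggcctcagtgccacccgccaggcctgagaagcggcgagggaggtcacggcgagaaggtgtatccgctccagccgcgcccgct
Rad51ap1 (GRCm38.p6 chr6:126939538-126939837, minus strand): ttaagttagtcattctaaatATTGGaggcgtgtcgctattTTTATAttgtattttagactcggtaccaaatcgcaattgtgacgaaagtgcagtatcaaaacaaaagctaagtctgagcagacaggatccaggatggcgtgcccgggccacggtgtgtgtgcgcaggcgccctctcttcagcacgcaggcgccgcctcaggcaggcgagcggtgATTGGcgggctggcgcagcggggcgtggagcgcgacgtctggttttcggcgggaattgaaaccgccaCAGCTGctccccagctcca
Hnrnpf (GRCm38.p6 chr6:117907554-117907853, plus strand): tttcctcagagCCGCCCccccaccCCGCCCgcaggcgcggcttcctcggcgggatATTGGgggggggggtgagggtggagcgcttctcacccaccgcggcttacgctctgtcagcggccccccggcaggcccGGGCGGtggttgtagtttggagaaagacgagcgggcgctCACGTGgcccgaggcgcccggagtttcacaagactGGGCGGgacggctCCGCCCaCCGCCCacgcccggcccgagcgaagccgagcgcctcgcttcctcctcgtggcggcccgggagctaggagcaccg
Eif2ak3 (GRCm38.p6 chr6:70844265-70844564, plus strand): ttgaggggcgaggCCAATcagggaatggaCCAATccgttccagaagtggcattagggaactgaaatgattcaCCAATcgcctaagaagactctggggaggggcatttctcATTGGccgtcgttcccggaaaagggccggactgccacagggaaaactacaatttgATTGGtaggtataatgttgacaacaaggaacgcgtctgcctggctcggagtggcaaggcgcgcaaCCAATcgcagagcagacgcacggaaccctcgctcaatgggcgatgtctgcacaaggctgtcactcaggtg
Of the 8 windows, 3 held CCGGAAG or its complement (Emc3, Arpc4 and Lsm5). The Ncapd2 window held TTTGGCGC, the type of site known for E2F cell cycle factors.

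The peak positions are given as in the files, whose build the sources used here do not give, while gene starts came from GRCm38.p6. Adding 50 kb to each peak position put 258 of the 335 peak centres within 1 kb of a gene start, against 24 with no shift, a median of 9 over 16001 shifts and 35 at the best shift more than 5 kb away. In 9 of 10 windows of 15 Mb the same shift in 1 kb steps placed the most peaks. In the last window, from 135 Mb on, 50 kb placed 5 of 29 peaks and 51 kb placed 24. Gene names there are therefore given with both shifts. In steps of 10 bp the best shift in single windows ran from 49300 to 51860 bp, so the distance to a start is approximate for any 1 gene.

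**Figure D1:**
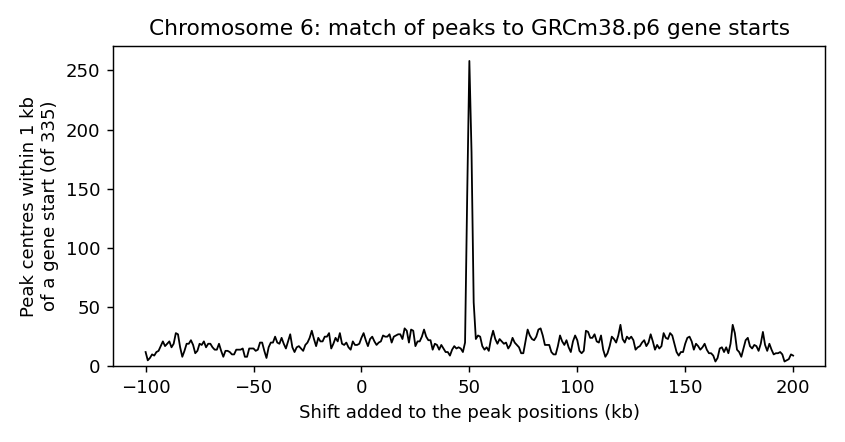
Number of the 335 chromosome 6 peak centres within 1 kb of a GRCm38.p6 gene start (vertical axis) against the shift added to the peak positions in kb (horizontal axis). The line has 1 peak, 258 centres at a shift of 50 kb, and the next best shift more than 5 kb away gave 35.

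Sin3B had the most peaks on chromosome 6. There were 29 Sin3A peaks in myoblasts, which is 4.20% of that list (95% Clopper-Pearson interval 2.83 to 5.97). Sin3A had 27 peaks in myotubes (3.56%, 2.36 to 5.13). Sin3B had 110 in myoblasts (4.61%, 3.80 to 5.53) and 169 in myotubes (4.48%, 3.85 to 5.19). These intervals, like all those given here, cover counting error only. The intervals of the 4 shares overlapped. Sin3A peaks had a median width of 377 bp in myoblasts and 467 bp in myotubes. Sin3B peaks had a median width of 501 bp in the first stage and 551 bp in the second. Over the other chromosomes the medians were 413, 476.5, 498 and 545 bp in the same order. The covered length was 10.1 kb, 12.4 kb, 58.5 kb and 100 kb. Peaks narrower than 50 bp numbered 3, 1, 5 and 2 in the same order.

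The peaks lay mostly at gene starts in 3 of the lists and mostly inside genes in the fourth. Of the Sin3A peaks in myotubes, 24 of 27 had their centre within 1 kb of a start (88.9%, 70.8 to 97.6). For Sin3B this held for 83 of 110 in myoblasts (75.5%, 66.3 to 83.2) and 143 of 169 in myotubes (84.6%, 78.3 to 89.7). For Sin3A in myoblasts it held for 8 of 29 (27.6%, 12.7 to 47.2), while 16 lay elsewhere inside a gene and 5 outside genes. The interval of this last list did not reach those of the other 3. These shares use the 50 kb shift throughout, which placed 5 of the 29 peaks in the last 15 Mb, against 24 with 51 kb. With shifts fitted in 15 Mb windows, chosen after seeing the data, the Sin3B shares were 82.7% in myoblasts and 90.5% in myotubes. For Sin3A they were 27.6% in myoblasts and 92.6% in myotubes. The strand of 174 protein-coding genes was not known, so either end of those genes counted as a start. Such an end was the nearest start of 35 peaks at a start, some of which also had a start of known strand within 1 kb.

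**Figure D2:**
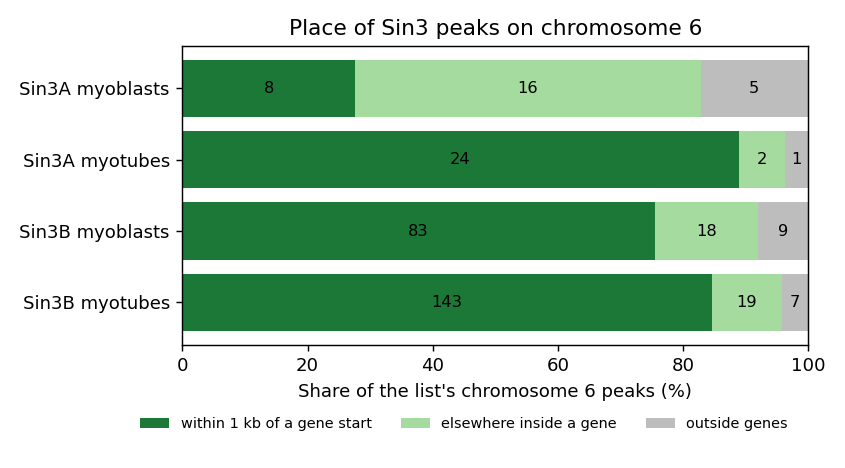
Share of each list's chromosome 6 peaks (horizontal axis, percent) within 1 kb of a gene start, elsewhere inside a gene or outside genes, with the number of peaks written in each part. The dark part is 27.6% for Sin3A in myoblasts and between 75.5% and 88.9% in the other 3 lists. Places use the 50 kb shift throughout.

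Among peaks with their centre within 1 kb of a start of known strand, in the first 135 Mb, centres leaned to the transcribed side of the start. Over 218 such peaks the median centre lay 180 bp downstream, and 176 (80.7%) lay downstream. The lean was seen on both strands, with medians of 164 bp for genes on the plus strand and 191.5 bp for genes on the minus strand. An error in the shift moves the medians of the 2 strands in opposite directions. Sin3B centres had a median of 79 bp downstream in myoblasts (47 of 69 downstream) and 225 bp in myotubes (108 of 126). Sin3A centres had a median of 308 bp in myoblasts (5 of 5) and 221 bp in myotubes (16 of 18). Measured directly between overlapping peaks, which needs no shift, 43 Sin3B myotube centres lay a median of 50 bp downstream of the myoblast centre at the same gene, with quartiles of -23.5 and 127.5 bp. Of these, 28 lay downstream and 15 upstream. Peaks of 1 list share 1 set of libraries, so this is a description of these lists and was not tested.

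**Figure D3:**
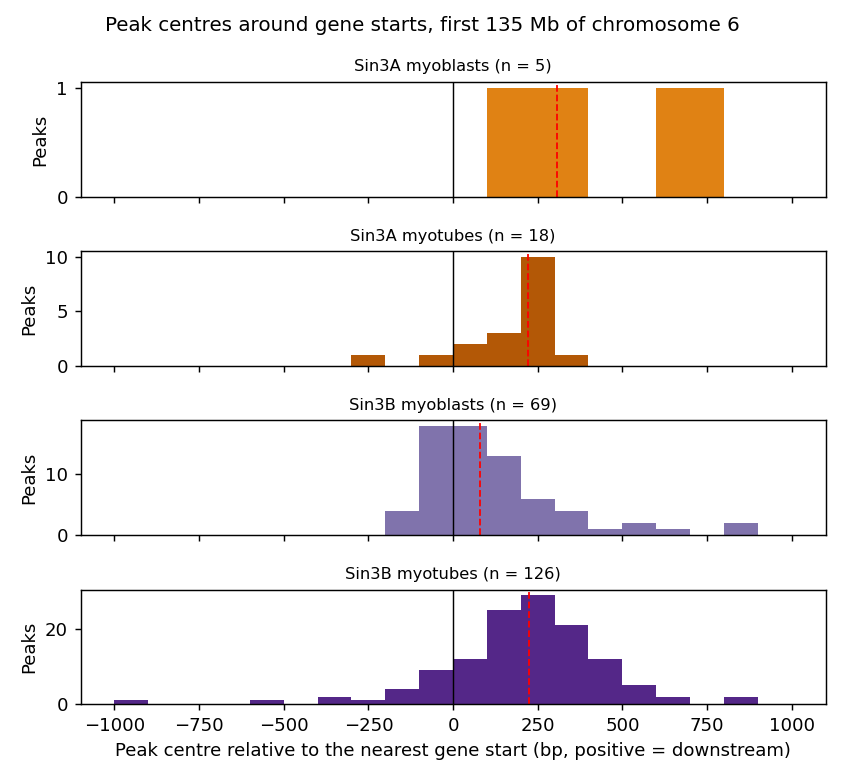
Peak centres relative to the nearest gene start (horizontal axis, bp, positive downstream) counted in 100 bp bins (vertical axis, peaks) for each list, in the first 135 Mb. The dashed line is the median, 79 bp for Sin3B myoblasts, 225 bp for Sin3B myotubes, 221 bp for Sin3A myotubes and 308 bp for the 5 peaks of Sin3A myoblasts.

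In myotubes most Sin3A peaks overlapped a Sin3B peak, and in myoblasts most did not. Of the 27 Sin3A myotube peaks, 21 overlapped a Sin3B myotube peak (77.8%, against 81.2% over all chromosomes). The same overlap was 12.4% of the 169 Sin3B peaks (16.4% over all chromosomes). Of the 29 Sin3A myoblast peaks, 6 overlapped a Sin3B myoblast peak (20.7%, against 33.1%), which was 5.45% of the Sin3B peaks (9.72%). Between stages, 62 of the 110 Sin3B myoblast peaks overlapped a myotube peak (56.4%, against 60.2%), and 62 of the 169 myotube peaks overlapped a myoblast peak (36.7%, against 38.0%). Sin3A shared 3 peaks between stages, 10.3% of its myoblast peaks (against 18.8%) and 11.1% of its myotube peaks (against 17.3%). Of these only the peak at Slc25a26 lay at a gene start. The others were inside Ano2 and, with a width of 25 bp, inside Ybx3. A peak of any other list was met by 37.9% of Sin3A myoblast peaks (50.1% over all chromosomes), 81.5% of Sin3A myotube peaks (85.4%), 58.2% of Sin3B myoblast peaks (63.1%) and 46.2% of Sin3B myotube peaks (48.2%). For 8 of these shares chromosome 6 was tested against the other chromosomes, and none passed (Fisher's exact test, two-sided, adjusted by Benjamini-Hochberg over these and 4 tests by distance, smallest adjusted p of the 8 0.592). The share of Sin3A myotube peaks in Sin3A myoblasts, and the shares of Sin3B peaks of a stage in Sin3A of that stage and of Sin3B myotube peaks in Sin3B myoblasts, were not tested. Among Sin3B myoblast peaks, 53 of 83 at gene starts (63.9%) and 11 of 27 elsewhere (40.7%) overlapped another list, with Fisher's exact p = 0.044 and adjusted p = 0.528. With starts limited to 500 bp the shares were 67.9% and 34.4%, and the difference passed (Fisher's exact test, adjusted p = 0.018).

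Merged across lists, the peaks made 241 regions, of which 160 were in 1 list, 70 in 2, 9 in 3 and 2 in all 4. With the 50 kb shift, gene starts lay within 1 kb of 114 of the 160 regions of a single list (71.2%) and of 60 of the 70 in 2 lists (85.7%). Counts of regions at a start below use the same shift.

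The first region in all 4 lists lay at Slc25a26 (chr6:94449915-94450730), which carries S-adenosylmethionine, the methyl donor, into mitochondria. Its strand was not known, so the peak may lie at either end of the gene. The Sin3A peak there was 396 bp wide in myoblasts and 661 bp in myotubes. The Sin3B peak was 708 bp wide in the first stage and 600 bp in the second. The second lay inside Ano2, a calcium-activated chloride channel gene (chr6:125826928-125827245), 64764 bp from the nearest start. Its widths were 274, 204, 287 and 318 bp in the same order, below the median of every list.

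Sin3A in myotubes and Sin3B at both stages shared 7 further regions, 6 of them at a gene start. One was at Fancd2 and Emc3 (chr6:113481120-113482174), which encode a DNA crosslink repair protein and a subunit that inserts membrane proteins in the endoplasmic reticulum. The Sin3A myotube peak there was 667 bp, the Sin3B myoblast peak 702 bp and the Sin3B myotube peak 1055 bp. The region at Ncapd2, a condensin subunit, and Mrpl51 (chr6:125141212-125142284) had widths of 683, 484 and 980 bp in the same order. At Arpc4, an actin nucleation subunit, and Tada3, a histone acetyltransferase adaptor (chr6:113327649-113328560), they were 451, 755 and 361 bp. So the widest peak was Sin3B in myotubes at Fancd2 and Ncapd2, and Sin3B in myoblasts at Arpc4. Trnt1, which completes the ends of tRNAs, had widths of 442, 748 and 634 bp (chr6:106718943-106719690). Lsm5, part of the ring on U6 snRNA, had 673, 323 and 684 bp (chr6:56654186-56654982). Chchd4, which oxidises proteins imported into the space between the mitochondrial membranes, had 594, 508 and 511 bp (chr6:91422893-91423519). Trnt1 was thus widest for Sin3B in myoblasts, and Chchd4 for Sin3A in myotubes. The seventh, at Pyroxd1, an oxidoreductase gene (chr6:142293901-142294448), had 497, 419 and 507 bp. It lies in the last 15 Mb, and its centre fell within 1 kb of the start only with the 51 kb shift. The promoters of Emc3, Ncapd2, Arpc4, Lsm5 and Chchd4 are among those printed above.

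Sin3A in myoblasts joined both Sin3B lists at Tnpo3, a nuclear import receptor gene, and inside Vwf, which encodes von Willebrand factor. At Tnpo3 (chr6:29558910-29560035) the Sin3A peak was 100 bp, the Sin3B myoblast peak 1126 bp and the Sin3B myotube peak 559 bp. Inside Vwf (chr6:125567890-125568131) the widths were 242, 42 and 9 bp. The Vwf region thus rests on very narrow Sin3B intervals.

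In myotubes Sin3A and Sin3B shared 12 regions that were in neither myoblast list, and all 12 lay at a gene start. The widest was at Mat2a, which makes S-adenosylmethionine, and its neighbour Particl, with a Sin3A peak of 489 bp and a Sin3B peak of 980 bp. Cep41, a centrosomal protein gene, had 651 and 806 bp. Foxm1, a transcription factor of the G2 and M phases, and its neighbour Rhno1 had 470 and 738 bp. Mad2l1, the spindle checkpoint gene, had 388 and 588 bp. These 4 had the wider peak for Sin3B. So did C87436 (292 and 974 bp), Lsm3 with Xpc (427 and 652 bp), Cnbp (587 and 628 bp), Tmem43 (615 and 627 bp), Fmc1 (347 and 590 bp) and Smyd5 (477 and 502 bp). The Sin3A peak was the wider at Gm38882 (467 and 310 bp) and Tia1, an RNA-binding protein gene (312 and 306 bp). The separate Sin3B myoblast peak given above for Chchd4 (508 bp) also lay within 1 kb of the Tmem43 start.

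Sin3A alone in myotubes had 5 regions, all at gene starts. They were Bhlhe41, a repressor of the circadian and muscle differentiation circuits (474 bp), 1600020E01Rik (426 bp), Usp5, a deubiquitinase gene (414 bp), Ankrd26 (399 bp) and Stambp (280 bp). At 2 of these genes separate Sin3B peaks lay within 1 kb of the same start without touching the Sin3A peak. These were at Usp5 in both stages (386 and 433 bp in myoblasts, 407 and 638 bp in myotubes) and at 1600020E01Rik in myotubes (668 bp). Bhlhe41 lies in the last 15 Mb, and its peak stayed within 1 kb of the start with either shift.

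Sin3A alone in myoblasts had 18 regions, of which 3 lay at a gene start. These were Eif2ak3, the endoplasmic reticulum stress kinase PERK (566 bp, chr6:70794375-70794940), Hk2, the hexokinase of muscle glycolysis (276 bp), and C2cd5 (245 bp). C2cd5 lies in the last 15 Mb and kept its start within 1 kb with either shift, and with 51 kb a separate Sin3B myotube peak came within 1 kb of that start too. The widest of the others was 615 bp and lay 1403 bp from the start of Hoxa9, and the next were inside Creb3l2 (524 bp), Srgap3 (511 bp) and Tafa4 (479 bp). Sin3A in myoblasts and Sin3B in myotubes shared 4 regions, at Serbp1, an mRNA-binding protein gene (510 and 1680 bp, chr6:67216646-67218431), Rab11fip5 (556 and 533 bp), Spsb2 (251 and 273 bp) and a stretch without a near gene (8 and 6 bp, chr6:120544628-120544635). The Serbp1 peak of Sin3B in myotubes was the widest peak on the chromosome. The Sin3A lists of both stages, and no Sin3B list, shared 1 interval of 25 bp inside Ybx3 (chr6:131327559-131327584).

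Sin3B peaks made up most regions. There were 51 in both Sin3B lists alone (44 at a start), 46 in Sin3B myoblasts alone (30 at a start) and 91 in Sin3B myotubes alone (76 at a start). The widest pair was at Rad51ap1, a recombination factor gene, and D6Wsu163e (1038 bp in myoblasts and 1374 bp in myotubes, chr6:126889058-126890431). Next came Ccdc77 with Kdm5a, the H3K4 demethylase known to join Sin3 complexes (1330 and 854 bp, chr6:120313597-120314926). Snrpg, a core spliceosome protein gene, had 591 and 1120 bp (chr6:86321021-86322140). The widest shared region without a start within 1 kb was in Wnk1, a kinase gene of ion transport (271 and 1183 bp, chr6:119986168-119987350). Myotube peaks were thus wider at Rad51ap1, Snrpg and Wnk1, and the myoblast peak at Kdm5a. Over the 43 overlapping Sin3B pairs used above, the myotube peak was the wider at 19.

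Among the regions of Sin3B in myotubes alone, the widest was at Hnrnpf, a splicing regulator gene (1578 bp, chr6:117856744-117858321). Next were Ezh2 with F830010H11Rik (1021 bp, chr6:47544711-47545731), Ezh2 being the Polycomb H3K27 methyltransferase that is known to hold muscle genes silent in myoblasts, and E230016M11Rik beside Gadd45a, a stress and growth arrest gene (985 bp, chr6:66985177-66986161). The widest without a start within 1 kb was in Kcmf1 (788 bp). Its centre lay 1050 bp from the Kcmf1 start with the 50 kb shift, just outside the limit, so its place depends on the exact shift. In myoblasts alone, the widest Sin3B peaks at starts were at Bet1, a vesicle fusion gene (696 bp), Ssbp1, the mitochondrial single-strand DNA-binding protein gene (687 bp), and Ndufb2, a complex I subunit gene (676 bp).

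The widest Sin3B myoblast peaks without a gene start lay upstream of the Mir29a and Mir29b-1 genes, whose miRNAs rise in muscle differentiation. The mature miRNAs share a seed, bases 2 to 8 in capitals, with positions from RefSeq.
miR-29a-3p (GRCm38.p6 chr6:31062673-31062694, minus strand): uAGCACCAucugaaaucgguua
miR-29b-3p (GRCm38.p6 chr6:31063025-31063047, minus strand): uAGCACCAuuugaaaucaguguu
One region (chr6:31034949-31036533) held a Sin3B peak of 1527 bp and a Sin3A peak of 378 bp, both in myoblasts. A second (chr6:31037206-31038620) held a Sin3B myoblast peak of 1415 bp. They lay 22.6 kb and 24.8 kb from the Mir29b-1 hairpin on its 5′ side, and neither myotube list had a peak there. In myoblasts, then, 2 wide Sin3B peaks and 1 Sin3A peak sat on the upstream side of this miRNA pair. Whether they act on these genes was not tested.

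The posterior part of the Hox A cluster, whose genes set position along the limb, held a group of Sin3B peaks in myoblasts. There were 7, from inside Hoxa9 to Hoxa11, with widths of 271, 478, 404, 717, 200, 541 and 482 bp. Sin3B in myotubes had 1 peak (461 bp), at Hoxa11 and its antisense gene Hoxa11os, which cannot be separated by position. Sin3A had 1 in myoblasts (615 bp) and none in myotubes. Only the Hoxa10 and Hoxa11 starts lay within 1 kb of a peak centre, so 2 of the 12 genes on the list, which are the Hox A genes and their neighbour Evx1, counted as having one.

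**Figure D4:**
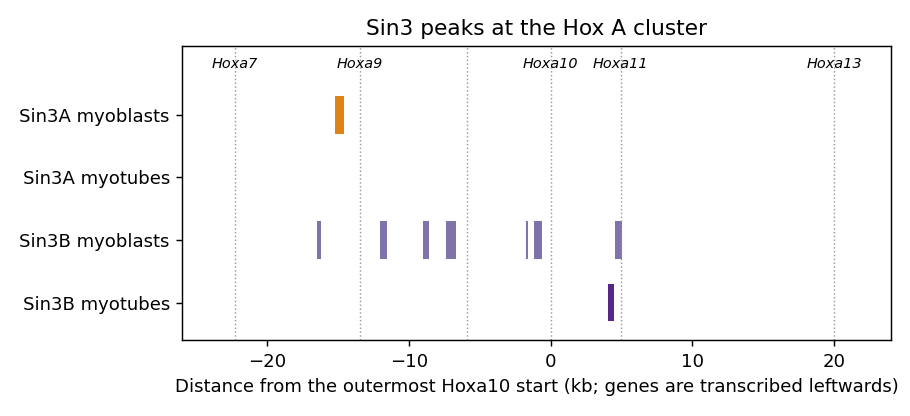
Peaks of the 4 lists (bars, drawn to scale) by distance from the outermost Hoxa10 start (horizontal axis, kb), with gene starts as dotted lines. Sin3B in myoblasts has 7 peaks, Sin3A in myoblasts 1, Sin3B in myotubes 1 and Sin3A in myotubes none.

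Genes were then read by function from 8 lists of 137.0 chromosome 6 genes, counting any gene with a start within 1 kb of a peak centre. The background was the 1126 protein-coding genes of the chromosome. Of these, 8 (0.71%) had a Sin3A myoblast peak, 27 (2.4%) a Sin3A myotube peak, 94 (8.35%) a Sin3B myoblast peak and 150 (13.3%) a Sin3B myotube peak, and 185 (16.4%) had any. None of 150 genes of the olfactory, vomeronasal, taste and killer-cell lectin-like receptor families had one, and without them the share was 19.0%. Over all 8 lists 53.0 genes (38.7%) had a peak. The lists were compiled by function with results of these data known, so their counts are a description. Among the genes named at a start, the start of some could be either end of the gene. These were Slc25a26, Trnt1, Usp5, Xpc, Mrps35, Kdm5a, Foxm1, Rhno1, Fancd2, Rpl32, Sec61a1, Tead4 and Bhlhe40. Another gene had the nearest start to the peak at Tes, Ezh2, Cbx3, Gadd45a, Cnot4, Bhlhe40, Mat2a, Emc3, Rhno1 and D6Wsu163e.

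Cell cycle and DNA repair genes had the highest share of the 8 lists, 11 of 14 (78.6%), with 9 in Sin3B myotubes, 7 in Sin3B myoblasts, 4 in Sin3A myotubes and none in Sin3A myoblasts. Foxm1, Mad2l1, Ncapd2 and Fancd2 were the 4 with Sin3A in myotubes. Cdca3, a mitotic entry gene, had 2 Sin3B peaks in each stage (386 and 433 bp in myoblasts, 407 and 638 bp in myotubes). Rad52 had 603 bp in myoblasts and 273 bp in myotubes. Sin3B in myotubes alone marked Rad18, of damage tolerance (650 bp), and Gadd45a (867 bp). Sin3B in myoblasts alone marked Cdkn1b, the cyclin-dependent kinase inhibitor p27 (314 bp), and Pot1a, a telomere protein gene (377 bp). Ccnd2, Mcm2 and Pole4 had no peak. Genes that drive division and genes that stop it were thus both among the members.

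RNA, translation and secretion genes followed, with 14 of 20 (70.0%). Sin3B in both stages had Snrpg, Emg1 (530 and 1061 bp), Sec13 (760 and 665 bp), Thumpd3 (694 and 676 bp), Gars, the glycyl-tRNA synthetase gene (677 and 1112 bp), and Lsm5. Sin3B in myotubes had Rpl32, a ribosomal protein gene (381 bp), Hnrnpa2b1 (341 and 515 bp), Copg1 (510 bp), Snd1 (590 bp) and Lsm3. Cnot4 (395 bp) and Sec61a1 (452 bp) had Sin3B in myoblasts alone. Eif2ak3 was the only listed gene with a Sin3A myoblast peak.

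Mitochondrial and energy genes had a peak in 9 of 20, with 8 in each Sin3B list. The complex I genes Ndufa5 (955 bp in myoblasts and 524 bp in myotubes) and Ndufa9 (810 and 744 bp) were wider in myoblasts. Phb2, a prohibitin gene (530 and 1061 bp), and Mrpl35, of the mitochondrial ribosome (360 and 835 bp), were wider in myotubes. The Phb2 peaks are the same as those given for its neighbour Emg1, so they count in both lists. Mrpl53 had 696 and 499 bp, and Chchd3, of the inner membrane folds, 269 and 560 bp. Gapdh, the glycolysis enzyme, had a 605 bp peak in Sin3B myotubes and a 557 bp Sin3B myoblast peak 1218 bp from its start, just outside the limit.

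The list of chromatin genes and Sin3 partners had a peak in 7 of 19 (36.8%, beside 16.4% of protein-coding genes), all Sin3B (4 in myoblasts and 6 in myotubes). Besides Kdm5a these were Ing4, a reader of H3K4 methylation (597 and 840 bp), and Brpf1, an acetyltransferase scaffold (557 and 371 bp in myoblasts, 489 bp in myotubes). Within 1 kb of their starts, Ezh2, Cbx3, a heterochromatin protein gene (515 bp), and Kdm7a (530 bp) had myotube peaks alone. Smarcad1 (520 bp) had a myoblast peak alone. The Cbx3 peak is also counted for its neighbour Hnrnpa2b1. A Sin3A myoblast peak of 404 bp lay inside Kdm7a, 27363 bp from its start. Mxd1, Hdac11, Chd4 and Ing3 were among the listed genes with no peak within 1 kb of a start.

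The muscle list had 4 of 24, a share of 16.7% beside 16.4% of protein-coding genes. Flnc, the filamin of the Z-disc, had an 824 bp Sin3B myotube peak and a second of 285 bp further inside the gene. Pdzrn3, which acts in myoblast differentiation, had 2 (365 and 326 bp) in the same list. The others were Tes, a focal adhesion gene (389 bp, Sin3B in myoblasts), and Arpc4. Dysf, Cav3 and Lmod2, genes of membrane repair, muscle caveolae and the thin filament, had none. Of 17 other transcription regulators, 4 had a peak. In Sin3B myotubes these were Tead4, which works with the myogenic factors (886 bp), Bhlhe40 (833 bp) and Zfp384 (315 bp), and the fourth was Bhlhe41. Of 11 growth signalling genes, 2 had a peak, both in Sin3B myotubes: Met, the receptor of hepatocyte growth factor (440 bp), and Vhl (309 bp).

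**Figure D5:**
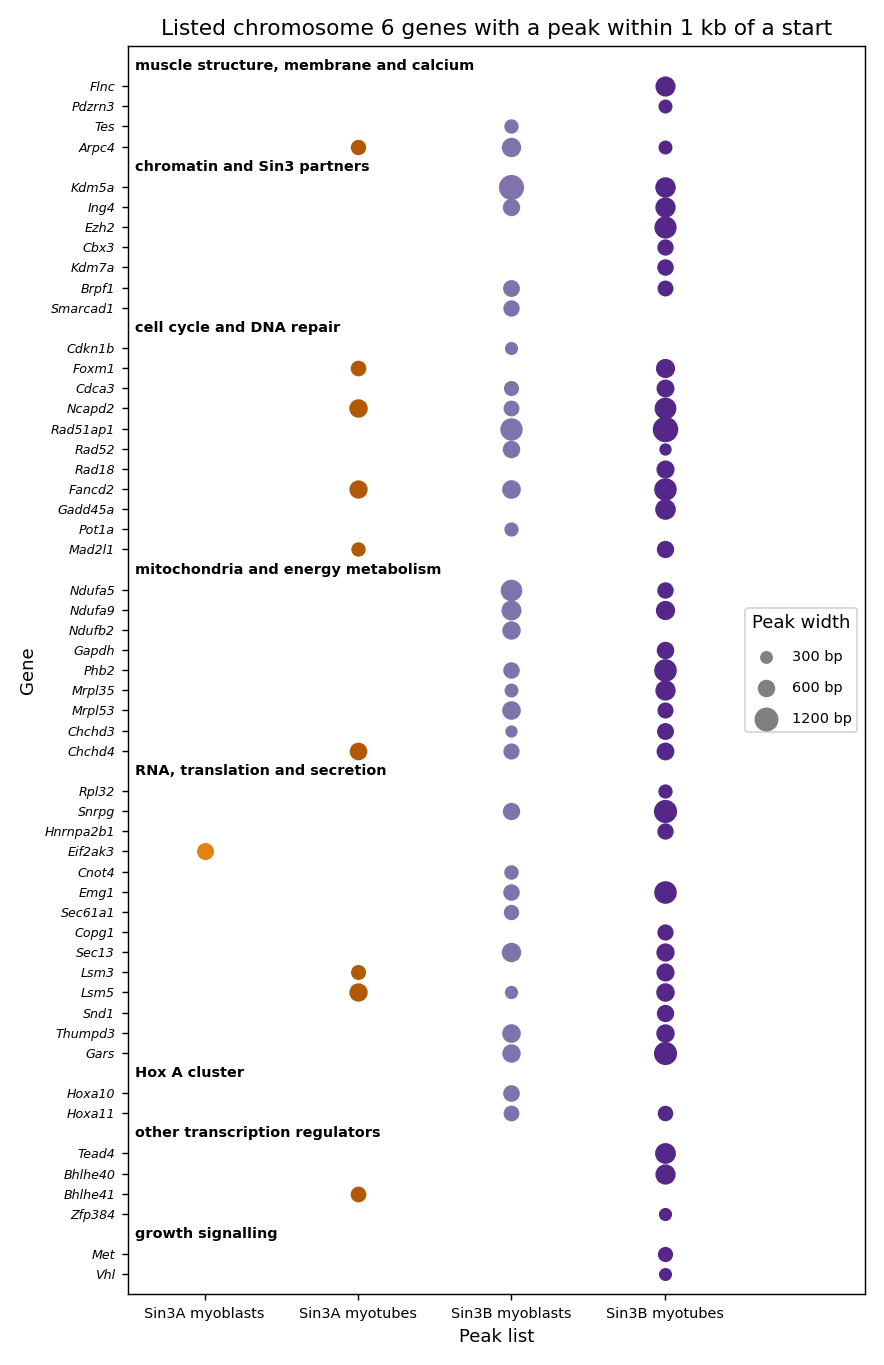
The 53.0 listed genes with a peak within 1 kb of a start (vertical axis) by list (horizontal axis), with dot area proportional to the width of the widest peak in bp. The Sin3A myoblast column holds 1 gene, Eif2ak3, and the Sin3A myotube column 9.

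In the last 15 Mb further names depended on the shift. With 51 kb, and not with 50 kb, Sin3B peaks came within 1 kb of Wbp11, Strap, Recql, Mrps35, Ipo8, Amn1, H4f16, Etnk1, Dennd5b, Resf1, C2cd5, Gm6288 and 4732416N19Rik. The C2cd5 peak was 677 bp wide, in myotubes, and its centre lay 1717 bp from the start with 50 kb and 717 bp with 51 kb. At Recql, a DNA helicase gene, the peaks were 475 bp in myoblasts and 1120 bp in myotubes. Emp1 had a Sin3A and a Sin3B myoblast peak (377 and 461 bp), the second of which lay 222 bp from the start with 50 kb and 1222 bp with 51 kb.

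Genes with a peak more often had a second gene starting within 1 kb on the opposite strand. This was so for 42 of 161 genes of known strand with a peak (26.1%) and for 106 of all 952 (11.1%). In myotubes the share was 35.0% for Sin3A and 27.7% for Sin3B. In myoblasts it was 34.2% for Sin3B and 1 of 7 genes for Sin3A. A peak between 2 such starts counts for both genes, and the difference was not tested.

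The promoters at peaks were rich in CpG. In 207 windows of 300 bases whose start lay within 1 kb of a peak, the median GC content was 60.7% and the ratio of observed to expected CpG 0.801. For all 1865 windows of chromosome 6 these were 51.3% and 0.351. The motifs searched, on both strands, were CCGGAAG (the core bound by ETS factors), GGGCGG (SP factors), CACGTG (the E-box of MYC and MAX), CAGCTG (the E-box common for myogenic factors), TGACGTCA (CREB and ATF), TTTGGCGC (E2F), GCGCATGCG (NRF1), CCAAT (NF-Y) and TATAAA. No motif contains another. CCGGAAG was in 31.4% of windows at peaks and 7.24% of all chromosome 6 windows (8.86% of the 32851 windows of the genome). GGGCGG was in 60.4% against 33.2%, and CACGTG in 10.1% against 5.31%. CAGCTG was in 8.21% against 15.6%, and TATAAA in 7.25% against 15.4%. CCAAT was in 38.2% against 37.2%, TGACGTCA in 4.83% against 1.98%, TTTGGCGC in 2.42% against 0.697% and GCGCATGCG in 2.42% against 1.45%. Among windows with a CpG ratio of 0.6 or more, chosen after these values were seen, CCGGAAG was in 34.6% of 182 with a peak and 10.2% of 420 without one. GGGCGG was in 63.2% and 74.8% of the same windows, so its order turned while that of CCGGAAG stayed. The order also turned for TATAAA (7.14% with a peak and 6.19% without) and GCGCATGCG (2.75% and 4.29%). By list CCGGAAG was in 38.5% of windows at Sin3B myoblast peaks, 36.1% at Sin3B myotube peaks, 29.6% at Sin3A myotube peaks and 33.3% of the 9 at Sin3A myoblast peaks. These are matches of letters in a window, and neighbouring starts share bases, so no test was made.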

How the data were processed

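Sin3A and Sin3B were profiled by ChIP-seq in C2C12 myoblasts and myotubes, with fragments of about 350 bp and 18 PCR cycles, per the labels' protocols. The authors deposited peak intervals per sample (chromosome, start and end, with no signal, score or count). The sources used here do not give the aligner, peak caller, threshold or genome build. Files within a group were identical and counted once, and depth is unknown. Positions were made 1-based.

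Chromosome 6 peaks were matched to RefSeq GRCm38.p6 gene starts after adding 1 shift (range 8 Mb either way, 1 kb steps) and named by the nearest start; coordinates of peaks are the authors'. Overlap needed 1 bp. Shares have Clopper-Pearson intervals, and Fisher's exact tests (scipy 1.17.1, threshold 0.05) were adjusted over 12 comparisons. The scripts were tested on simulated data. Some genes are not reported here and were left out of the gene lists. Named genes were all listed genes with a peak, the regions in all 4 lists, and the 3 widest regions at a start and the widest without one per pattern of lists; the other genes and the promoters of the regions shared by Sin3A in myotubes with Sin3B were chosen after their values were seen. The members and gene lists were chosen with earlier results of these data known. Alternatives covered overlap, start limits, shifts and peak width.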

Additional observations from a re-analysis of the deposited data

How the results depend on the processing

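Under alternative settings 105 values did not change their reading: shares stayed within the main interval, tests (chromosome 6 against the others, and overlap by distance) on their side of the threshold, and counts of regions within 1.5 times. Another 9 shares moved, and 1 test passed the threshold. With peaks at or above the median width of their list, none of the Sin3A myoblast peaks overlapped Sin3A myotubes or Sin3B myoblasts (0%, against 10.3% and 20.7%). The share of Sin3B myoblast peaks at gene starts was 88.2% with a limit of 2 kb and 92.7% with 5 kb. For Sin3B myotubes it was 76.9% with 500 bp, 94.7% with 2 kb and 95.9% with 5 kb. Chosen after seeing the data, shifts fitted in 15 Mb windows gave 90.5%, and starts from promoter windows alone 77.5%. With a 500 bp limit the overlap of Sin3B myoblast peaks by distance had an adjusted p of 0.018 (Fisher's exact test). By the same test it was 0.572 with 2 kb and 0.783 with 5 kb. No paired analysis was possible because the files of each group were identical, and for the same reason no replicate could be left out. Without heights or depth, a missing peak cannot be told apart from one just under the authors' threshold.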
